A study of Homo sapiens with 15 samples.

Results

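The contractile and smooth muscle actin genes described here are ACTA2, ACTG2, TAGLN, MYL9, MYLK, CNN1, CNN2, TPM1, TPM2 and CALD1. They were chosen by gene symbol, and the 10 symbols were 10 of the 33158 in the deposited expression table. Their expression was measured by RNA sequencing in established human triple negative breast cancer (TNBC) cell lines, and cancer stem cells (CSCs) were compared with the remaining cells.

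Cells of SUM149PT (SUM149 in the labels) and HCC1937 had been separated by flow cytometry into CSCs, defined as CD44+/CD24-/low, and non-CSCs, which lay outside that gate. SUM159PT (SUM159 in the labels) was sequenced without sorting, and the study considered it as CSCs. Each of the 5 groups held 3 libraries made from poly(A) mRNA, and no treatment is given for any of them. The labels do not state whether the libraries of a group came from separate cultures, so p-values measure the spread between these libraries, which may be technical. Expression is given as FPKM (fragments mapped to a gene, scaled by its transcript length and by the fragments mapped in the library), and values in each sentence follow the order of replicates 1, 2 and 3. Read depth is unknown for all 15 libraries. FPKM summed over all genes to between 291276.5 and 366532.5 in the 12 sorted libraries and to between 634746.2 and 652081.7 in SUM159PT. Between 11249 and 11997 genes exceeded 1 FPKM in a sorted library, against 8534 to 8670 in a SUM159PT library.

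Contraction rests on myosin pulling on actin filaments. Actin isoforms build the filament, tropomyosins lie along it, and caldesmon, calponins and transgelin bind it, while myosin pulls once its regulatory light chain has been phosphorylated by myosin light chain kinase. Smooth muscle uses these proteins at high levels, as do myoepithelial cells of the breast and myofibroblasts, and many of their genes are known targets of serum response factor (SRF) and its myocardin-related coactivators, which act through the CArG box.

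The sort markers were examined first. CD24 measured 7.97, 7.64 and 7.61 FPKM in SUM149PT CSCs and 147, 137 and 134 in the non-CSCs. In HCC1937, CD24 measured 23.6, 22.5 and 23.9 FPKM in CSCs and 167, 141 and 142 in non-CSCs. CD24 was thus far lower in every CSC library than in any non-CSC library of the same line. CD44 measured 83.4, 82.9 and 86.8 FPKM in SUM149PT CSCs and 67.0, 65.3 and 61.4 in non-CSCs, with no overlap, whereas its change of 0.12 on the log2 scale in HCC1937 did not pass the limma test (Benjamini-Hochberg adjusted p = 0.314). Unsorted SUM159PT held CD24 at 0.759, 0.682 and 0.745 FPKM and CD44 at 28.6, 29.4 and 28.4 FPKM.

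The 10 genes differed widely in level. Summed, they reached 222 ± 9.00 FPKM (mean ± SD, n = 3) in SUM149PT CSCs, 147 ± 6.34 in SUM149PT non-CSCs, 75.1 ± 6.46 in HCC1937 CSCs, 90.9 ± 3.42 in HCC1937 non-CSCs and 476 ± 6.09 in SUM159PT. These sums are as deposited and are not shares of a library. The SUM159PT libraries also held far larger sums over all genes than the sorted libraries. CNN2 was the most abundant of the 10 per unit of length in each of the 4 sorted groups, where it made up 37.4%, 46.6%, 62.5% and 73.1% of these sums in that order. TPM2 led in SUM159PT with 48.8% of the sum. Several of the smooth muscle genes stood low. ACTG2 and CNN1 were under 1 FPKM on average in all 5 groups, and ACTA2 was so in both HCC1937 fractions.

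ACTA2, the smooth muscle alpha-actin, measured 5.58, 6.13 and 5.65 FPKM in SUM149PT CSCs and 1.87, 1.64 and 1.59 in SUM149PT non-CSCs. In HCC1937, ACTA2 was at 0.739, 0.317 and 0.387 FPKM in CSCs and 0.481, 0.565 and 0.646 in non-CSCs. SUM159PT libraries held 10.1, 9.91 and 9.65 FPKM. As deposited, the order of ACTA2 was therefore SUM159PT, SUM149PT CSCs, SUM149PT non-CSCs and then both HCC1937 fractions, which overlapped each other. With TPM, SUM159PT passed as lower than SUM149PT CSCs (-0.32, limma adjusted p = 0.00390).

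ACTG2, the enteric gamma-actin, was listed at 0.259, 0.233 and 0.347 FPKM in SUM149PT CSCs and at 0, 0.0291 and 0.0247 in SUM149PT non-CSCs. The HCC1937 libraries held 0.126, 0.0914 and 0.0541 FPKM in CSCs and 0.179, 0.0259 and 0.0233 in non-CSCs. In SUM159PT it measured 0.889, 1.11 and 0.751 FPKM. SUM159PT stood highest and SUM149PT CSCs next, while HCC1937 CSCs, HCC1937 non-CSCs and SUM149PT non-CSCs overlapped as neighbours. Promoter windows of 250 bases before to 50 bases after the start site were searched on both strands for the CArG box. A window was given for 8 of the 10 genes by RefSeq (GRCh38.p14), and 3 of the 8 held a match, against 1.29% of 35116 windows and 1.6% of 27305 genes over the whole RefSeq table. A match describes letters in the window and is not a bound site. The ACTG2 window, chr2:73892758-73893057 on the plus strand, is shown because it holds matches 110 and 73 bases upstream of the start, which are in capitals.
ACTG2: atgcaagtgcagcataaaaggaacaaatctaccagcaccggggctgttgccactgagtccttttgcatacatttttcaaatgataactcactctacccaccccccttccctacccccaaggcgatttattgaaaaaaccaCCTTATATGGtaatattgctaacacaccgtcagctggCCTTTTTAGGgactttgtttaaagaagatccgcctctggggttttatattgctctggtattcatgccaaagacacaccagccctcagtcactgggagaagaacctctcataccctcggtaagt

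TPM1 encodes a tropomyosin found in muscle and nonmuscle cells alike. It measured 44.6, 43.6 and 44.8 FPKM in SUM149PT CSCs and 7.65, 8.46 and 8.23 in SUM149PT non-CSCs. HCC1937 held 7.99, 7.09 and 7.50 FPKM in CSCs and 8.70, 8.38 and 8.02 in non-CSCs. With 6.16, 6.47 and 6.27 FPKM, SUM159PT was lowest as deposited. It passed as higher than HCC1937 CSCs under upper quartile and quantile scaling and with a trend on GC content or transcript length removed. SUM149PT CSCs stood apart from every other group, and HCC1937 non-CSCs, SUM149PT non-CSCs and HCC1937 CSCs followed as overlapping neighbours.

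TPM2, the beta-tropomyosin gene, measured 56.6, 64.2 and 63.5 FPKM in SUM149PT CSCs and 24.4, 28.8 and 26.8 in non-CSCs. In HCC1937 it stood at 5.67, 4.46 and 4.25 FPKM in CSCs and 3.21, 3.22 and 3.07 in non-CSCs. SUM159PT reached 224, 244 and 229 FPKM. None of the 5 groups overlapped for TPM2, which ran from SUM159PT through SUM149PT CSCs, SUM149PT non-CSCs and HCC1937 CSCs to HCC1937 non-CSCs.

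CNN1, the basic calponin of differentiated smooth muscle, was near 0 throughout. It was listed at 0.154, 0.123 and 0.101 FPKM in SUM149PT CSCs and 0.0589, 0.0714 and 0.0220 in non-CSCs, at 0, 0 and 0 in HCC1937 CSCs and 0, 0.0473 and 0.0204 in non-CSCs, and at 0.0776, 0.0406 and 0.0622 in SUM159PT. SUM149PT CSCs were highest and did not overlap the other groups, which overlapped as neighbours. The mean of CNN1 was under the expression minimum of 0.1 FPKM in every comparison, so it was tested in none with all libraries on the deposited scale. CNN1 passed as higher in SUM149PT CSCs than in non-CSCs with no minimum (0.59, limma adjusted p = 0.0218) and with TPM (1.01, adjusted p = 0.0271). It also passed without SUM149PT non-CSC replicate 3 (0.45, adjusted p = 0.0260). Without SUM159PT replicate 2, it was lower in SUM159PT than in SUM149PT CSCs (-0.41, adjusted p = 0.0296). In both fits with a library left out, CNN1 reached the minimum only through SUM149PT CSCs. That set its direction, so these calls are descriptions.

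CNN2, a calponin expressed in many nonmuscle cells, measured 79.4, 88.2 and 81.8 FPKM in SUM149PT CSCs and 68.0, 70.8 and 66.9 in non-CSCs. HCC1937 CSCs held 50.6, 44.5 and 45.8 FPKM, and HCC1937 non-CSCs 63.0, 67.6 and 68.8. In SUM159PT the values were 157, 148 and 165 FPKM. As deposited, SUM159PT was highest and HCC1937 CSCs lowest, and the non-CSCs of the 2 lines overlapped. With TPM, SUM159PT fell below SUM149PT CSCs without passing (-0.17, limma adjusted p = 0.0800). Its promoter window, chr19:1026358-1026657 on the plus strand, is shown for its CArG box match 89 bases upstream of the start, in capitals.
CNN2: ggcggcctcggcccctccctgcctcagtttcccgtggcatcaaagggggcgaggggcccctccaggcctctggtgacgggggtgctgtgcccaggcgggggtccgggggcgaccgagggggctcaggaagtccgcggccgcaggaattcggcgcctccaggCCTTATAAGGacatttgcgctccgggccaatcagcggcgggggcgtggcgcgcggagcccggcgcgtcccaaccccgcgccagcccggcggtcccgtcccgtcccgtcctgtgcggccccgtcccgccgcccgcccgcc

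CALD1 encodes caldesmon, which binds actin and tropomyosin. It measured 16.0, 15.9 and 15.6 FPKM in SUM149PT CSCs and 16.9, 17.5 and 16.1 in non-CSCs. HCC1937 held 5.39, 4.73 and 4.81 FPKM in CSCs and 5.80, 5.72 and 6.29 in non-CSCs. SUM159PT was lowest as deposited, at 1.37, 1.25 and 1.82 FPKM. It passed as higher than HCC1937 CSCs once a trend on GC content was removed (0.34, limma adjusted p = 0.0488). The 5 groups did not overlap, and each line kept its own range, with little distance between the fractions of a line.

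TAGLN, or SM22, encodes transgelin, an actin-binding protein of smooth muscle and fibroblasts. It measured 2.13, 2.96 and 2.45 FPKM in SUM149PT CSCs and 6.78, 8.25 and 7.20 in non-CSCs. In HCC1937 the values were 4.47, 3.62 and 3.57 FPKM in CSCs and 2.90, 4.07 and 3.65 in non-CSCs. SUM159PT held 23.5, 21.7 and 20.8 FPKM. SUM159PT was highest and SUM149PT non-CSCs next, while HCC1937 CSCs, HCC1937 non-CSCs and SUM149PT CSCs formed a chain of overlapping neighbours at the low end.

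MYL9, the regulatory light chain of smooth muscle myosin, measured 4.74, 6.66 and 4.50 FPKM in SUM149PT CSCs and 15.2, 17.4 and 17.8 in non-CSCs. HCC1937 CSCs held 3.23, 1.76 and 0.986 FPKM and HCC1937 non-CSCs 1.58, 1.53 and 1.20. SUM159PT stood at 44.7, 46.2 and 44.0 FPKM. The order was SUM159PT, SUM149PT non-CSCs, SUM149PT CSCs and then both HCC1937 fractions, which overlapped.

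MYLK, the kinase that phosphorylates this light chain, measured 3.49, 2.92 and 3.15 FPKM in SUM149PT CSCs and 0.948, 1.08 and 0.813 in non-CSCs. HCC1937 held 4.26, 4.19 and 4.73 FPKM in CSCs and 1.12, 1.59 and 1.34 in non-CSCs. SUM159PT held 1.28, 1.63 and 1.74 FPKM. CSCs stood above non-CSCs in both sorted lines without overlap, HCC1937 CSCs being highest, and SUM159PT overlapped HCC1937 non-CSCs. The MYLK window, chr3:123620499-123620798 on the minus strand, lies near the 3' end of the span that GENCODE 29 gives the gene (chr3:123610049-123884331). It is shown for its CArG box match 94 bases upstream of the start, in capitals.
MYLK: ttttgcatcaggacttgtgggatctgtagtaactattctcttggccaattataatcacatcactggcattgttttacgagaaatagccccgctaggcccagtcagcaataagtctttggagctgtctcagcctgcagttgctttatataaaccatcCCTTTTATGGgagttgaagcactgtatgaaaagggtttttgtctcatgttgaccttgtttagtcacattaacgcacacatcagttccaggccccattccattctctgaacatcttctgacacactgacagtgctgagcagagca

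A second motif, CATTCC, was present in windows of ACTA2, MYLK and CALD1, that is in 3 of the 8 genes, and in 16.7% of the genes of the whole RefSeq table. Windows of CNN1, TPM1 and TPM2 held neither motif.

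**Figure D1:**
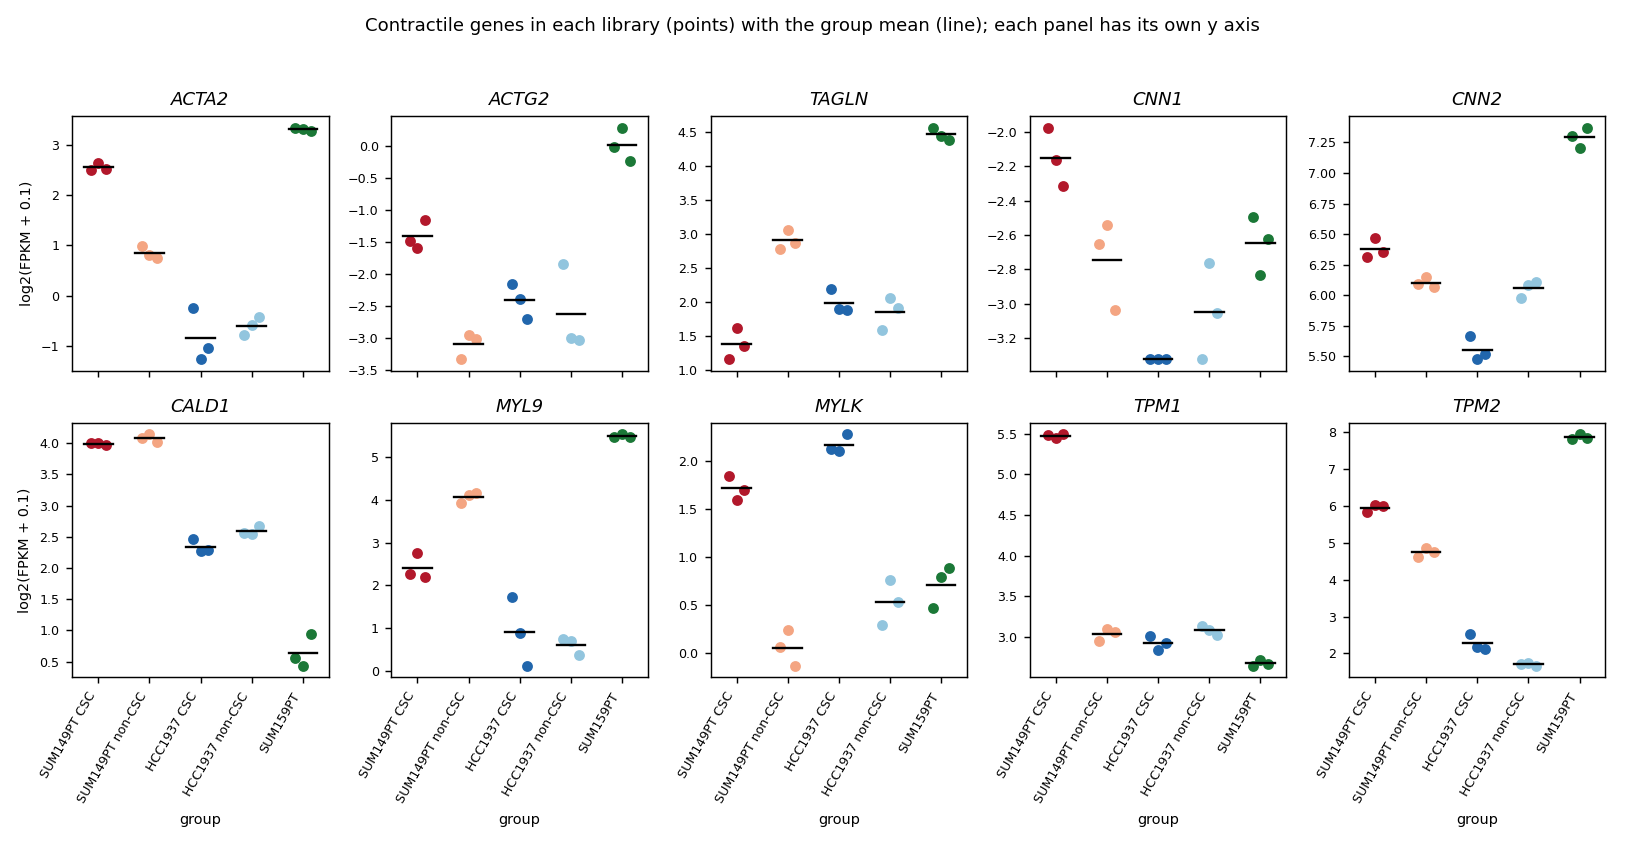
Expression of the 10 genes in each of 15 libraries, as log2(FPKM + 0.1) on the vertical axis, which differs between panels, with points for libraries and lines for group means. TPM1 stands apart in SUM149PT CSCs (44.6, 43.6 and 44.8 FPKM), TPM2 is highest in SUM159PT (224, 244 and 229 FPKM) and CALD1 lowest there (1.37, 1.25 and 1.82 FPKM).

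SUM149PT CSCs were compared with SUM149PT non-CSCs to ask which of the genes separate the fractions. The alpha-actin ACTA2, both tropomyosins and the light chain kinase were higher in CSCs, whereas the light chain MYL9 and transgelin were lower. TPM1 was 5.46-fold higher in CSCs, at 44.3 ± 0.650 against 8.11 ± 0.417 FPKM (mean ± SD, n = 3), and ACTA2 was 3.40-fold higher, at 5.78 ± 0.301 against 1.70 ± 0.151 FPKM. In the other direction MYL9 fell 3.17-fold, from 16.8 ± 1.42 FPKM in non-CSCs to 5.30 ± 1.18 in CSCs, and TAGLN fell 2.95-fold, from 7.41 ± 0.760 to 2.51 ± 0.420. Calls were made with limma on log2(FPKM + 0.1) at an adjusted p no higher than 0.05 over 16037 genes. Of the 9 genes tested, 6 were higher in CSCs (33.3% of all genes tested were) and 2 were lower (41.5% of all genes). The fractions did not overlap for any of these 8, but overlap was not counted over all genes. ACTG2, one of the 6, reached the minimum of 0.1 FPKM only through the CSCs (0.233 to 0.347 FPKM, against at most 0.0291 in non-CSCs), so it had to differ, and counts and medians that hold it are descriptions. The share of these genes that passed is not far from that of the whole table, in which most genes passed in one direction or the other. At stricter limits (an adjusted p not above 0.0001 with a log2 change of 1 or more in size, which is how the enrichment score named in the study's methods was read here), 4 genes passed, namely ACTA2, MYLK, TPM1 and TPM2, against 20.5% of all genes.

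The log2 fold changes, which understate changes of genes with low FPKM on this scale, had a median of 1.20 over the 9 genes and of -0.11 over all genes. Quantile scaling moved the all-gene median to 0.10 and the split from 5345 higher and 6648 lower to 6643 higher and 5466 lower, so changes are also given relative to the all-gene median. TPM1 rose by 2.44 (SE 0.0607, limma adjusted p = 2.62e-06), or 2.55 relative to that median. TPM2 rose by 1.20 (SE 0.0904, limma adjusted p = 8.18e-05), or 1.31 in relative terms, a 2.30-fold difference. ACTA2 rose by 1.71 (SE 0.0829, limma adjusted p = 1.59e-05) and by 1.82 relative to the median. The change of ACTG2 was 1.68 (limma adjusted p = 0.000173), 1.80 in relative terms, but lay between 0.33 (pseudocount 1) and 3.58 (pseudocount 0.01) over the alternatives, and no fold is given because 1 non-CSC library was listed at 0. MYLK rose by 1.66 (SE 0.119, limma adjusted p = 6.82e-05), 1.77 in relative terms or 3.37-fold. CNN2 passed with a small change of 0.28 (0.39 in relative terms, limma adjusted p = 0.00945), a 1.21-fold difference that lay between 0.23 and 0.56 on the log2 scale over the alternatives. MYL9 changed by -1.66 (SE 0.166, limma adjusted p = 0.000258), or -1.55 relative to the median. TAGLN changed by -1.53 (SE 0.140, limma adjusted p = 0.000181), or -1.42 relative to the median.

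CALD1 did not pass in SUM149PT (log2 fold change -0.09, 95% interval -0.23 to 0.06, limma adjusted p = 0.222), although its fractions did not overlap, and its direction turned (0.0018) once a trend on transcript length was removed. For a single gene, the exact two-sided permutation test of 3 libraries against 3 cannot give a p below 0.1, the value it gave for each gene without overlap. Fewer cells expressing a gene and less RNA per cell cannot be told apart in these bulk libraries.

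In HCC1937 the same comparison gave a smaller set of differences. MYLK was 3.25-fold higher in CSCs, at 4.40 ± 0.296 against 1.35 ± 0.235 FPKM (mean ± SD, n = 3), and TPM2 was 1.51-fold higher, at 4.79 ± 0.769 against 3.17 ± 0.0815. CNN2 was 1.41-fold lower in CSCs, at 47.0 ± 3.24 against 66.5 ± 3.05. Of 8 genes tested with limma, 2 were higher (10.3% of 15582 genes tested were) and 1 was lower (15.3% of all genes), and 5 did not pass. At the same stricter limits, 0 of the 8 passed with limma, as did 0% of all genes. The study did report genes that differed between the HCC1937 fractions, so these limits as read here do not reproduce its test.

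The median log2 fold change of the 8 genes was -0.01, beside -0.03 for all genes. The split of all genes, 1607 higher and 2378 lower, became 2039 and 1713 when each library was scaled to the same sum (TPM), which moved the all-gene median to 0.09, and 2388 and 2117 under quantile scaling. MYLK rose by 1.64 (SE 0.135, limma adjusted p = 0.000841), and CNN2 changed by -0.50 (SE 0.0810, limma adjusted p = 0.00807). TPM2 rose by 0.57 (SE 0.122, limma adjusted p = 0.0209), a call that was lost without non-CSC replicate 1, 2 or 3 (adjusted p = 0.0672, 0.0650 and 0.0681). ACTA2 had a log2 fold change of -0.25 (95% interval -0.94 to 0.44, limma adjusted p = 0.558) and TAGLN of 0.14 (95% interval -0.25 to 0.53, limma adjusted p = 0.574). Over the alternatives, ACTA2 ran from -0.55 to -0.047 and TAGLN from 0.0039 to 0.26, and neither passed. For MYL9 it was 0.31 (95% interval -0.71 to 1.32, limma adjusted p = 0.631), and the direction turned to -0.10 without CSC replicate 1. TPM1 had a value of -0.15 (95% interval -0.34 to 0.04, limma adjusted p = 0.208). CALD1 had -0.25 (95% interval -0.46 to -0.04, limma adjusted p = 0.0809) and passed once a trend on GC content was removed (-0.26, adjusted p = 0.0370). The fractions did not overlap for TPM1 or CALD1. ACTG2 and CNN1 were under the expression minimum.

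**Figure D2:**
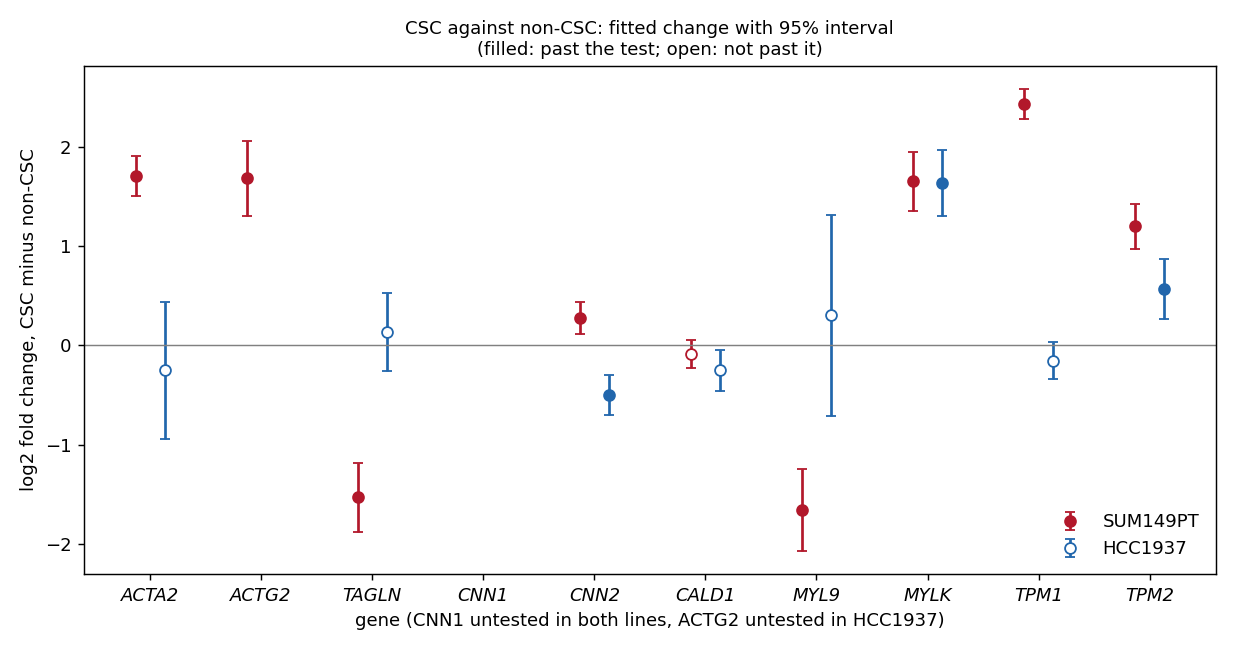
Log2 fold change of CSCs against non-CSCs with its 95% interval for the genes tested in SUM149PT and HCC1937, with filled points for an adjusted p of at most 0.05. MYLK lies at 1.66 and 1.64 in the 2 lines, while TPM1 lies at 2.44 and -0.15 and TAGLN at -1.53 and 0.14; CALD1 in SUM149PT (-0.09) turns positive when a length trend is removed, and MYL9 in HCC1937 (0.31) turns negative without 1 library.

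The difference between the lines was then tested with an interaction term fitted to the 12 sorted libraries. It separated 7 of the 9 genes tested: the CSC effect of ACTA2, ACTG2, CNN2, TPM1 and TPM2 was higher in SUM149PT than in HCC1937 (5 genes, against 28.1% of 16451 genes tested), and that of TAGLN and MYL9 was lower (2 genes, against 33% of all genes). TPM1 differed by 2.59 on the log2 scale (SE 0.0901, limma adjusted p = 1.77e-08), MYL9 by -1.97 (SE 0.473, limma adjusted p = 0.00474) and ACTA2 by 1.96 (SE 0.308, limma adjusted p = 0.000343). TAGLN differed by -1.67 (SE 0.221, limma adjusted p = 0.000107). The value of 1.48 for ACTG2 (SE 0.416, limma adjusted p = 0.0112) ran from 0.31 to 2.93 over the alternatives and is given as a description, because ACTG2 reached the minimum only through SUM149PT CSCs and was not tested within HCC1937. The differences were 0.78 for CNN2 (limma adjusted p = 7.62e-05) and 0.63 for TPM2 (limma adjusted p = 0.00539). At the stricter limits only TPM1 passed (1 of the 9, against 17.8% of all genes). The median over the 9 genes was 0.63, beside -0.08 for all genes, which quantile scaling moved to 0.06.

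MYLK was higher in CSCs of both lines, and its effects differed by 0.02 (95% interval -0.40 to 0.43, limma adjusted p = 0.949), a value close enough to 0 for its sign to turn with a pseudocount of 1 and with TPM. The sign of the MYLK difference also turned without HCC1937 CSC replicate 1 (-0.0052) or 2 (-0.018), HCC1937 non-CSC replicate 2 (-0.10), SUM149PT CSC replicate 1 (-0.05) or SUM149PT non-CSC replicate 3 (-0.08). CALD1 differed by 0.16 (95% interval -0.05 to 0.38, limma adjusted p = 0.159) and passed with a GC trend removed (0.21, adjusted p = 0.0467), with a length trend removed (0.25, adjusted p = 0.0294) and without HCC1937 CSC replicate 1 (0.22, adjusted p = 0.0474).

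The lines were also compared within each fraction. Among CSCs, HCC1937 held far less of both tropomyosins and of ACTA2 than SUM149PT did. TPM2 was 12.8-fold lower, at 4.79 ± 0.769 against 61.5 ± 4.22 FPKM (mean ± SD, n = 3), and TPM1 5.89-fold lower, at 7.53 ± 0.452 against 44.3 ± 0.650. ACTA2 measured 0.481 ± 0.226 against 5.78 ± 0.301 FPKM. Of 9 genes tested with limma 7 were lower (31.5% of 15952 genes tested were) and 2 were higher (45.2% of all genes). The median log2 fold change was -1.50, beside 0.24 for all genes, which upper quartile scaling moved to 0.07 and quantile scaling to 0.06. The values were -3.66 for TPM2 (limma adjusted p = 4.11e-06), -3.41 for ACTA2 (adjusted p = 7.95e-05), -2.54 for TPM1 (adjusted p = 1.65e-06) and -1.65 for CALD1 (adjusted p = 8.48e-06). ACTG2 and CNN2 were lower as well, by 3.09-fold and 1.77-fold (limma adjusted p = 0.00304 and 0.000207), ACTG2 again having reached the minimum only through SUM149PT CSCs. Over the alternatives the log2 value ran from -1.57 to -0.23 for ACTG2 and from -3.71 to -2.21 for ACTA2. MYL9 was 2.66-fold lower (limma adjusted p = 0.0194), a call lost without HCC1937 CSC replicate 2 (adjusted p = 0.0523) or SUM149PT CSC replicate 2 (adjusted p = 0.0638). TAGLN was 1.55-fold higher in HCC1937 (limma adjusted p = 0.0112), which did not pass with the GC trend removed (adjusted p = 0.0503). MYLK was 1.38-fold higher (limma adjusted p = 0.00522), which did not pass after upper quartile scaling (0.0644), TPM (0.0531) or removal of the GC trend (0.151).

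Among non-CSCs, MYL9 was 11.7-fold lower in HCC1937 than in SUM149PT, TPM2 8.43-fold lower, ACTA2 3.02-fold, CALD1 2.84-fold and TAGLN 2.09-fold. These 5 were the genes lower by limma among 8 tested (35.6% of 16433 genes were lower), and 1 gene, MYLK, was higher (41.4% of all genes were). The median log2 fold change was -1.25, beside 0.10 for all genes, a median that upper quartile scaling moved to -0.06 and TPM to -0.09. The log2 fold changes were -3.46 for MYL9 (limma adjusted p = 4.58e-06) and -3.03 for TPM2 (adjusted p = 2.04e-06). ACTA2 had -1.45 (limma adjusted p = 8.52e-05; -1.70 to -0.79 over the alternatives), CALD1 -1.49 (adjusted p = 1.11e-05) and TAGLN -1.05 (adjusted p = 0.000925). MYLK was 1.43-fold higher (limma adjusted p = 0.0325). That call was lost with upper quartile scaling, TPM or the GC trend removed, and without HCC1937 non-CSC replicate 2 or 3 (adjusted p = 0.0836 and 0.0773) or SUM149PT non-CSC replicate 1 or 3 (adjusted p = 0.0768 and 0.0946). CNN2 did not pass (-0.05, limma adjusted p = 0.558), although it did with upper quartile scaling (-0.22, adjusted p = 0.0253) and with the length trend removed (-0.20, adjusted p = 0.0384). TPM1 had a log2 fold change of 0.04 (limma adjusted p = 0.591), negative under upper quartile, quantile and TPM scaling and after either trend was removed.

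SUM159PT, sequenced without a sort, was set beside the sorted CSCs of each line. The 2 comparisons use the same SUM159PT libraries, and line, sorting and sum of FPKM differ together, so their parts cannot be told apart. Against SUM149PT CSCs, the deposited values placed TAGLN 8.75-fold, MYL9 8.49-fold and TPM2 3.78-fold higher in SUM159PT, and CALD1 10.7-fold and TPM1 7.04-fold lower. Of 9 genes tested with limma, 6 were higher (31.5% of 14976 genes tested were) and 3 were lower (55.5% of all genes). The all-gene median was -0.76 and became -1.72 with TPM, -0.46 with upper quartile and 0.04 with quantile scaling, and -0.01 with the GC trend removed. The all-gene split of 4712 higher and 8309 lower became 2395 and 11548 with TPM, 6548 and 6296 with quantile scaling, 5577 and 5550 with the GC trend removed, and 5883 and 5747 with the length trend removed.

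Relative to the all-gene median of -0.76, the log2 difference from SUM149PT CSCs was 3.85 for TAGLN (3.09 as deposited, limma adjusted p = 1.60e-06), 3.84 for MYL9 (3.08 as deposited, adjusted p = 3.34e-06) and 2.67 for TPM2 (1.92 as deposited, adjusted p = 1.68e-06). ACTG2 stood at 2.18 in relative terms (1.42 as deposited, limma adjusted p = 0.000256). ACTA2 stood at 1.52 (0.76 as deposited, limma adjusted p = 6.62e-05) and CNN2 at 1.67 (0.91 as deposited, adjusted p = 5.06e-05), and both turned negative with TPM, ACTA2 passing as lower (-0.32, adjusted p = 0.00390) and CNN2 not passing (-0.17, adjusted p = 0.0800). On the lower side CALD1 was at -2.59 (-3.35 as deposited, limma adjusted p = 1.44e-06) and TPM1 at -2.04 (-2.80 as deposited, adjusted p = 2.48e-07). MYLK was at -0.24 (2.06-fold lower as deposited, limma adjusted p = 0.000433) and turned positive and passed as higher with quantile scaling (0.45, adjusted p = 0.0115) and with the length trend removed (0.33, adjusted p = 0.0347). Over the alternatives, TAGLN ran from 2.04 to 3.85, MYL9 from 2.01 to 4.14, TPM2 from 0.83 to 2.47, ACTG2 from 0.57 to 2.72 and CALD1 from -4.47 to -1.48. The median over the 9 genes was 0.91 as deposited.

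Against HCC1937 CSCs, TPM2 was 48.5-fold, MYL9 22.6-fold and ACTA2 20.5-fold higher in SUM159PT as deposited, and ACTG2, TAGLN and CNN2 were 10.1-fold, 5.66-fold and 3.34-fold higher. These 6 genes passed with limma as higher (27.5% of 15515 genes tested did), and CALD1, MYLK and TPM1 passed as lower (3 genes, against 57.9% of all genes). The all-gene median was -0.97, and became -1.83 with TPM, -0.46 with upper quartile and -0.01 with quantile scaling. The all-gene split of 4273 higher and 8979 lower became 2352 and 11985 with TPM, 6533 and 6474 with quantile scaling, 5633 and 5665 with the GC trend removed and 5988 and 5849 with the length trend removed.

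Relative to that median, TPM2 differed from HCC1937 CSCs by 6.55 on the log2 scale (5.58 as deposited, limma adjusted p = 2.05e-07), MYL9 by 5.54 (4.58 as deposited, adjusted p = 3.65e-05) and ACTA2 by 5.13 (4.17 as deposited, adjusted p = 7.88e-06). TAGLN differed by 3.44 (2.48 as deposited, limma adjusted p = 2.36e-06), ACTG2 by 3.39 (2.42, adjusted p = 2.67e-05) and CNN2 by 2.70 (1.74, adjusted p = 4.29e-06), ACTG2 having reached the minimum only through SUM159PT here. The log2 differences of TAGLN, ACTG2 and CNN2, not taken relative to the median, ran from 1.49 to 3.36, 0.81 to 3.70 and 0.73 to 2.50 over the alternatives. Those of TPM2, MYL9 and ACTA2 ran from 4.59 to 6.39, 3.63 to 5.82 and 2.89 to 5.13. The 3 genes called lower depended on the scale. CALD1 was at -0.73 (-1.70 as deposited, limma adjusted p = 4.93e-05), did not pass with quantile scaling (-0.18, adjusted p = 0.233) and passed as higher with the GC trend removed (0.34, adjusted p = 0.0488). MYLK was at -0.49 (-1.45 as deposited, limma adjusted p = 5.79e-05), turned to 0.10 with quantile scaling (not passing, adjusted p = 0.468) and did not pass with the length trend removed. TPM1 was at -0.25 as deposited (limma adjusted p = 0.0299) but 0.71 relative to the median, and turned positive and passed as higher under upper quartile (adjusted p = 0.00517) and quantile scaling (9.82e-05) and after the GC (0.000137) or length trend (0.000831) was removed. Its call was also lost without HCC1937 CSC replicate 1 or 3 (adjusted p = 0.0619 and 0.0657), without SUM159PT replicate 1, 2 or 3 (0.0769, 0.0526 and 0.0630) and with the replicate number as a block (0.0840). The median over the 9 genes was 2.42 as deposited.

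**Figure D3:**
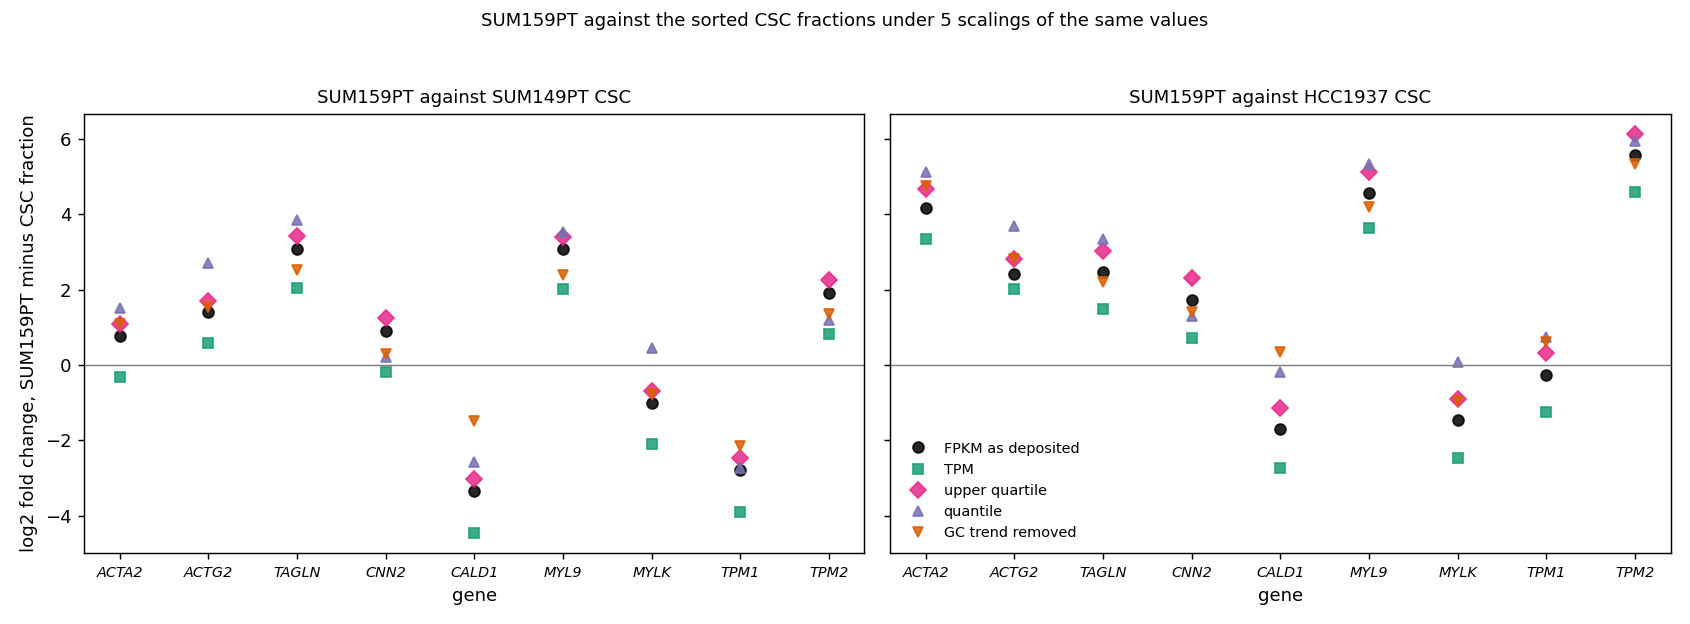
Log2 difference of SUM159PT from SUM149PT CSCs and from HCC1937 CSCs for 9 genes, as deposited and under 4 other scalings. TAGLN, MYL9, TPM2 and ACTG2 lie above 0 under each of the 5, whereas ACTA2 and CNN2 turn negative with TPM against SUM149PT CSCs (-0.32 and -0.17), MYLK turns positive with quantile scaling (0.45 and 0.10), and against HCC1937 CSCs TPM1 turns positive under upper quartile and quantile scaling and with the GC trend removed, as CALD1 does with the GC trend removed (0.34).

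Within a library, the share of a gene family held by each paralog is not changed by multiplying the library by a constant. In SUM149PT, TPM1 made up 12.2% of the summed FPKM of TPM1 to TPM4 in CSCs and 3.35% in non-CSCs, and TPM2 16.9% and 11.0%. TPM4, a nonmuscle tropomyosin, held 67.9% and 81.8%, and the family summed to 363 and 242 FPKM on average. In HCC1937 the fractions were close, with TPM4 at 79.0% in CSCs and 78.7% in non-CSCs, TPM1 at 4.66% and 5.50%, and TPM2 at 2.95% and 2.08%. SUM159PT stood apart, with TPM2 at 73.3% and TPM4 at 23.5% of 317 FPKM. The fractions did not overlap for any of the 4 shares in SUM149PT, nor for those of TPM1 and TPM2 in HCC1937 (exact two-sided permutation p = 0.1 for each, the smallest possible).

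Among calponins, CNN2 made up 86.1% of the family in SUM149PT CSCs and 65.2% in non-CSCs, with CNN3, the acidic calponin, holding nearly all the rest. It made up 49.9% and 51.9% in the HCC1937 fractions and 98.7% in SUM159PT. TAGLN was a small part of the transgelin sum beside TAGLN2, at 0.880% in SUM149PT CSCs, 4.36% in SUM149PT non-CSCs, 1.12% and 1.29% in HCC1937 and 3.46% in SUM159PT. ACTA2 never exceeded 1% of the summed actins on average: it held 0.343% and 0.0990% in the SUM149PT fractions, 0.0178% and 0.0199% in HCC1937 and 0.216% in SUM159PT. MYL9 held 1.90% of the regulatory light chains in SUM149PT CSCs and 6.33% in non-CSCs, against 0.634% and 0.390% in HCC1937 and 29.6% in SUM159PT, with MYL12A and MYL12B making up the rest. The SUM149PT fractions did not overlap for the shares of CNN2, TAGLN, ACTA2 or MYL9 (exact two-sided permutation p = 0.1 for each).

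**Figure D4:**
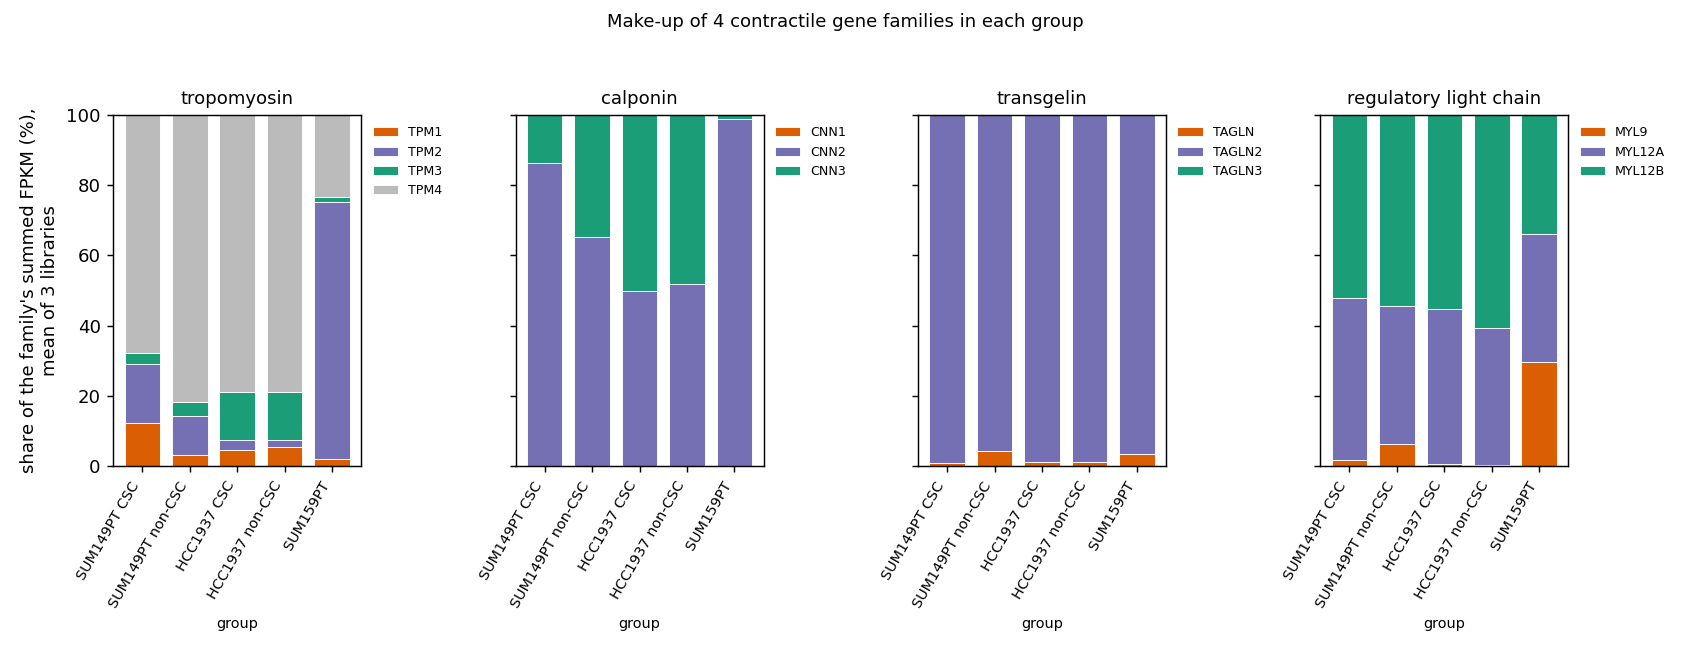
Share of each paralog in the summed FPKM of its family (stacked bars, percent of the family, means over 3 libraries) for tropomyosins, calponins, transgelins and regulatory light chains in the 5 groups. TPM2 takes 73.3% of the tropomyosins in SUM159PT, and TPM1 takes 12.2% in SUM149PT CSCs against 3.35% in the non-CSCs.

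Genes that work with the 10 were described as lists. Their counts, like those of the marker lists, stand beside 33.3% of all genes higher and 41.5% lower in SUM149PT CSCs and 10.3% higher and 15.3% lower in HCC1937 CSCs. Some listed genes, like ACTG2, reached the minimum through a single fraction, which set their direction, and their calls are descriptions. Of those that passed, these were LMOD1 and POSTN through the CSCs and MYH3, ACTC1, RGS5, VWF and CDH5 through the non-CSCs in SUM149PT, and CDH5 through the non-CSCs in HCC1937. Of those that did not pass, they were PPP1R14A through the non-CSCs in SUM149PT and LUM and MYLK2 through the CSCs in HCC1937. Of the 12 nonmuscle counterparts, 7 were higher, 4 lower and 1 not passed by limma in SUM149PT CSCs (median log2 fold change 0.26, beside -0.11 for all genes). MYH9, a nonmuscle myosin heavy chain, measured 365, 353 and 364 FPKM in SUM149PT CSCs and 91.5, 90.3 and 103 in non-CSCs, and rose by 1.93 (limma adjusted p = 6.60e-06). MYH14, another nonmuscle heavy chain, measured 0.563, 0.633 and 0.713 FPKM against 18.4, 19.5 and 18.6, and changed by -4.69 (limma adjusted p = 1.63e-06). The CSCs thus held more MYH9 and much less MYH14 than the non-CSCs. TAGLN2 rose by 0.79 (limma adjusted p = 0.000114), against the fall of TAGLN, and CNN3 changed by -1.45 (adjusted p = 8.69e-06), against the rise of CNN2. In HCC1937, 1 of the 12 was higher, 3 were lower and 8 did not pass (median -0.12, which became 0.01 with TPM or quantile scaling, beside -0.03 for all genes). TAGLN2 rose by 0.33 there (limma adjusted p = 0.0430), MYH14 changed by -1.53 (adjusted p = 0.000596) and CNN3 by -0.38 (adjusted p = 0.0217).

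Myosin phosphatase removes the phosphate that MYLK adds to the light chain. In SUM149PT CSCs, PPP1R12A and PPP1R12B, its targeting subunits, rose by 0.89 and 0.78, while PPP1R14B changed by -0.52, all past the limma test. PPP1R14A, or CPI-17, an inhibitor of this phosphatase, measured 21.5, 14.8 and 14.1 FPKM in HCC1937 CSCs and 5.36, 6.20 and 5.84 in non-CSCs. The fractions did not overlap, and the gene rose by 1.50 (limma adjusted p = 0.00273), whereas it was near 0 in SUM149PT, at 0.0941 FPKM on average in CSCs and 0.239 in non-CSCs, and did not pass there (-0.65). In HCC1937, PPP1R12A (0.06), PPP1R12B (-0.20) and PPP1R14B (0.07) did not pass. PPP1CB, the catalytic subunit, rose by 0.39 in SUM149PT CSCs and changed by -0.27 in HCC1937 CSCs, both past the limma test.

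Of 17 actin crosslinking and adhesion partners, 11 were higher, 3 lower and 3 not passed in SUM149PT (median 0.70; of all genes, 33.3% were higher and 41.5% lower), with FHL2 at 2.25, TGFB1I1 at 1.76 and LIMA1 at 1.71 on the higher side and PALLD at -0.89, FLNA at -0.68 and PDLIM5 at -0.55 on the lower. In HCC1937, 4 were higher, 3 lower and 10 not passed (median 0.09), with TGFB1I1 at 1.01, TLN1 at 0.79 and FLNA at 0.61, against LIMA1 at -0.45, ACTN4 at -0.43 and VCL at -0.31. With TPM, 5 were higher and 0 lower (median 0.21) there, so these 3 lower calls were lost, and with upper quartile or quantile scaling 5 were higher and 2 lower (median 0.14 and 0.15). TGFB1I1, which encodes the focal adhesion protein Hic-5, was thus higher in CSCs of both lines, whereas FLNA, or filamin A, was lower in SUM149PT CSCs and higher in HCC1937 CSCs.

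For SRF with its coactivators and antagonists, 17 of the symbols were in the table. In SUM149PT, 7 were higher, 4 lower and 5 not passed (median 0.10, or 0.23 with 8 higher and 2 lower under quantile scaling), led by ELK4 at 0.83, ELK3 at 0.81 and GATA6 at 0.69, and on the lower side by KLF4 at -0.73, MEF2C at -0.71 and the coactivator gene MKL1 at -0.64. SRF itself rose by 0.38 in SUM149PT (limma adjusted p = 0.00341) and had a value of -0.14 in HCC1937 (limma adjusted p = 0.183). In HCC1937, 2 of the list were higher (TEAD1 at 0.55 and TEAD4 at 0.36), 1 was lower (TEAD3 at -0.48) and 12 did not pass, with a median near 0 that was positive under upper quartile, TPM and quantile scaling. Quantile scaling gave 4 higher and 1 lower, and TPM 3 higher and 0 lower. Of 10 immediate SRF target genes, 6 were higher and 2 lower in SUM149PT (median 0.41), where 33.3% of all genes were higher and 41.5% lower, with EGR1 at 1.18, FOS at 0.90 and ACTB at 0.60 against IER2 at -0.46 and JUNB at -0.39. In HCC1937, 2 were higher and 4 lower (median -0.24), with CYR61 at 1.01 and CTGF at 0.88 against FOSB at -0.62, FOS at -0.43 and EGR1 at -0.43. With TPM, 1 was lower (median -0.12), and with quantile scaling the median was -0.16.

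Sarcomeric and striated muscle counterparts were mostly too low to test. Of 11, 3 were tested in SUM149PT, where MYH3 (-2.67) and ACTC1 (-0.86) were lower, both having reached the minimum only through the non-CSCs, and 1 did not pass (median -0.86, or -0.25 with 1 lower under quantile scaling and -1.27 with TPM, under which 5 were tested), and 5 in HCC1937, where MYL2 (-2.48) was lower and 4 did not pass (median -0.09, positive under TPM and quantile scaling).

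**Figure D5:**
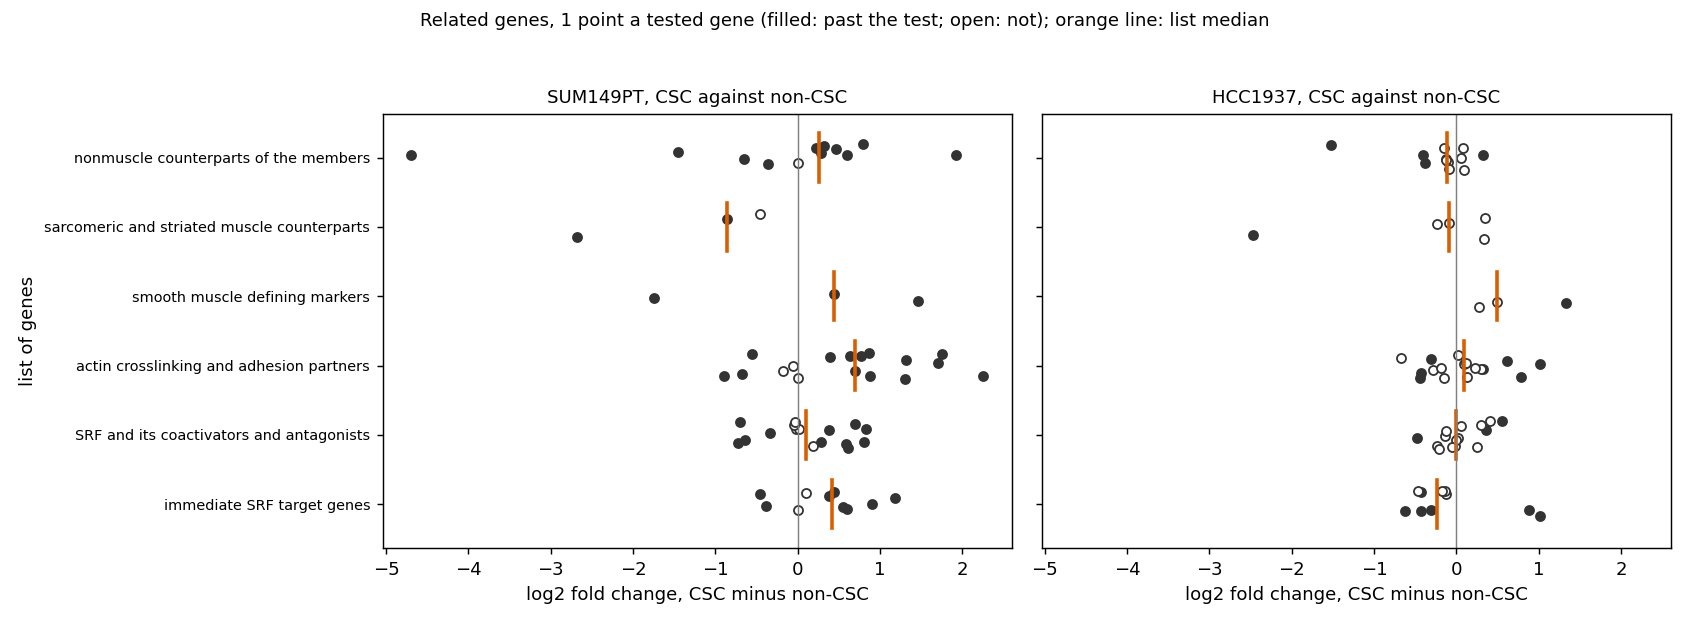
Log2 fold change of CSCs against non-CSCs for each gene of 6 related lists in SUM149PT and HCC1937, with filled points where the test was passed and an orange mark at each list's median. Medians lie at 0.70 and 0.09 for actin crosslinking partners and at 0.41 and -0.24 for immediate SRF target genes; the smooth muscle median in SUM149PT (0.44) becomes negative with TPM, and the HCC1937 medians of the nonmuscle, sarcomeric and SRF lists become positive under TPM or quantile scaling.

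Markers of cells known for these genes were read alongside. MYH11, the smooth muscle myosin heavy chain, and PLN were listed at 0 in all 15 libraries, and MYOCD, which encodes myocardin, was listed at 0 in 13 of them and at most at 0.00825 FPKM. The 8 smooth muscle markers summed to between 10.9 and 11.5 FPKM in SUM149PT CSCs, 11.1 and 12.1 in SUM149PT non-CSCs, 18.5 and 23.1 in HCC1937 CSCs, 12.2 and 16.3 in HCC1937 non-CSCs and 3.80 and 4.28 in SUM159PT, and SMTN was the most abundant of them in every library. Of the 3 tested in SUM149PT, SMTN (0.44) was higher and SYNM (-1.75) lower, and LMOD1 (1.46) was higher after reaching the minimum only through the CSCs, with a median of 0.44 that became -1.04 with TPM, under which 5 were tested. Of the 3 tested in HCC1937, DES (1.32) was higher and 2 did not pass (median 0.49), whereas 2 were higher with TPM or upper quartile scaling and 3 with quantile scaling.

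Epithelial and mesenchymal markers moved with the fractions in both lines. The 8 epithelial markers summed to 150, 157 and 156 FPKM in SUM149PT CSCs and to 2381, 2337 and 2377 in non-CSCs, with KRT19 leading in the non-CSCs. In HCC1937 they summed to 606, 561 and 512 FPKM in CSCs and to 1823, 1825 and 1570.2 in non-CSCs, where KRT18 led. All 8 of them were lower in CSCs of both lines by limma (median -4.46 in SUM149PT and -2.20 in HCC1937). The 7 mesenchymal markers summed to 2377, 2521 and 2434 FPKM in SUM149PT CSCs and to 472, 463 and 524 in non-CSCs. In HCC1937 the sums were 1088, 958 and 934 FPKM in CSCs and 146, 217 and 191 in non-CSCs. VIM led in every library but SUM149PT non-CSC replicate 1, where FN1 did, and none of the markers in either list was listed at 0 in any library. In SUM149PT, 6 of the 7 were higher and 1 lower (median 1.98), and in HCC1937, 6 were higher and 1 did not pass (median 1.80). SUM159PT held epithelial sums of 276 to 292 FPKM and mesenchymal sums of 1233 to 1262. The part of these differences in the changes of the contractile genes was not tested.

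Of 7 myoepithelial and basal markers, 3 were higher and 4 lower in SUM149PT CSCs (median -0.59, or -0.12 with quantile scaling, and 3 lower under each of 3 other scalings), and 6 were lower and 1 did not pass in HCC1937 CSCs (median -0.81). They summed to 113 to 116 FPKM in SUM149PT CSCs, 764 to 820.0 in SUM149PT non-CSCs, 283 to 310 in HCC1937 CSCs, 613 to 669 in HCC1937 non-CSCs and 7.64 to 9.01 in SUM159PT. The leading gene was KRT17 in SUM149PT and in HCC1937 non-CSCs, KRT14 in HCC1937 CSCs and EGFR in SUM159PT, and 0 of the markers were listed at 0 in any library. Of 10 fibroblast and myofibroblast markers, COL1A1 led in all 15 libraries. They summed to 241 to 246 FPKM in SUM149PT CSCs, 71.4 to 74.5 in SUM149PT non-CSCs, 15.3 to 16.1 in HCC1937 CSCs, 6.87 to 8.90 in HCC1937 non-CSCs and 43.4 to 48.9 in SUM159PT. In SUM149PT, 5 were higher and 3 lower of 8 tested (median 1.69), and in HCC1937, 3 were higher and 1 did not pass of 4 tested (median 1.38), against 5 higher of 6 tested with TPM and 4 of 4 with upper quartile or quantile scaling. POSTN in SUM149PT and LUM in HCC1937 reached the minimum only through the CSCs. DCN was listed at 0 in all 3 HCC1937 non-CSC libraries and FAP in all 3 SUM159PT libraries. The part of these markers in the results was not tested.

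The remaining markers were those of pericytes, endothelium, leukocytes and skeletal muscle. The 4 pericyte markers, led by NOTCH3 in all 15 libraries, summed to 40.7 to 43.8 FPKM in SUM149PT CSCs, 99.5 to 103 in SUM149PT non-CSCs, 26.3 to 27.4 in HCC1937 CSCs, 29.5 to 35.0 in HCC1937 non-CSCs and 32.0 to 41.0 in SUM159PT, with 1 higher and 3 lower in SUM149PT CSCs (median -0.69, or -0.33 with 2 lower under quantile scaling), RGS5 among them through the non-CSCs only, and 1 higher, 2 lower and 1 not passed in HCC1937 CSCs (median -0.01). That HCC1937 median was positive under TPM (0.13), upper quartile (0.04) and quantile scaling (0.07), and the 2 lower calls became 0, 1 and 1. The 4 endothelial markers summed to between 0.162 and 1.83 FPKM, led by PECAM1 in both HCC1937 fractions and in SUM149PT CSCs, by VWF in SUM149PT non-CSCs and by KDR in SUM159PT, with 3 of 3 tested lower in SUM149PT CSCs (median -2.48) and 1 of 2, CDH5, in HCC1937 CSCs (median -0.52). Of these, VWF in SUM149PT and CDH5 in both lines reached the minimum only through the non-CSCs. Of the 4 leukocyte markers, CD3E was listed at 0 in every library and PTPRC did not exceed 0.0986 FPKM, whereas CD14 and CD68 carried sums of 18.2 to 19.3 FPKM in SUM149PT CSCs, 95.6 to 103 in SUM149PT non-CSCs, 93.5 to 108 in HCC1937 CSCs, 67.4 to 72.5 in HCC1937 non-CSCs and 47.7 to 54.0 in SUM159PT. Both were lower in SUM149PT CSCs (median -2.90), and 1 of 2 tested was higher in HCC1937 CSCs (median 0.53). The 5 skeletal muscle markers summed to between 0.0161 and 1.64 FPKM, with DES or ACTA1 leading and MYOD1 listed at 0 in every library. The 1 gene tested in SUM149PT did not pass (median -0.46, 0.16 with quantile scaling, and -1.32 with 1 of 3 tested lower under TPM), and 1 of 2 was higher in HCC1937 CSCs (median 0.55). The part of these markers in the results was not tested.

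Genes on the opposite strand share exonic bases with some of the 10 in GENCODE 29, and because strand is not given in the sources used here, reads from the overlaps cannot be told apart. ACTA2 (chr10:88935074-88991339, minus strand) shares 380 exonic bases with FAS, which is 12.8% of its exonic bases, and FAS rose by 0.85 in SUM149PT CSCs (limma adjusted p = 0.00201), from 1.06 to 1.98 FPKM on average. It also shares 516 bases with ACTA2-AS1, listed at 0 in all 15 libraries. TAGLN (chr11:117199321-117204782, plus strand) shares 446 bases, 11.4% of its exonic bases, with PCSK7, which changed by -1.88 in SUM149PT CSCs (limma adjusted p = 3.80e-06), from 4.71 to 1.21 FPKM on average. In SUM159PT, where ACTA2 and TAGLN were highest, FAS and PCSK7 stood at 0.192 and 1.17 FPKM on average. The part of FAS and PCSK7 in the values of their neighbours was not tested. MYLK shares 133 bases, 0.6% of its exonic bases, with MYLK-AS1. On average MYLK-AS1 stood at 0.381 FPKM in SUM149PT CSCs and 0.481 in non-CSCs. It stood at 1.39 in HCC1937 CSCs, 1.94 in HCC1937 non-CSCs and 2.45 in SUM159PT. The part of MYLK-AS1 in the values of MYLK was not tested. Not analysed here were the genes that overlap TPM1 (chr15:63042632-63071915, plus strand), which are TPM1-AS at 2070 exonic bases and AC079328.2 at 691, MYLK-AS2, which shares 97 bases with MYLK, and AC011558.1, which shares 338 bases with CNN2 (chr19:1026581-1039068, plus strand), or 9.27% of the exonic bases of CNN2. The other genes lie at chr2:73892314-73919865 (ACTG2), chr20:36541484-36551447 (MYL9), chr19:11538717-11550323 (CNN1) and chr7:134744252-134970728 (CALD1) on the plus strand, and at chr9:35681992-35690121 (TPM2) on the minus strand.

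Actins are close copies of each other, so reads may be shared between them. Stretches of 50 bases shared with any other gene made up at most 1.13% of the stretches of a member (CNN2), and 0.875% for ACTA2.

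Genes whose pattern over the 15 libraries lay nearest to that of a member were found by the root mean square difference of centred log2(FPKM + 0.1) values, among 12156 genes averaging 1 FPKM or more. The nearest were SCARF2 (0.270) and BIN1 (0.285) for ACTA2, and LOC100126784 (0.203) and NGFR (0.226) for TPM1. For CALD1 they were CNOT4 (0.123) and ETV6 (0.135), for CNN2 ZFAND2B (0.115) and VPS26B (0.136), and for TAGLN LINC00339 (0.160) and FTH1P10 (0.227). MYL9 lay nearest to SECTM1 (0.383) and ECHDC3 (0.394), and MYLK to KIRREL (0.310) and HEG1 (0.320). Of the other members, TPM2 lay nearest to ACTA2, at 0.768, which is a larger distance than to the genes just named.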

How the data were processed

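Gene expression of 15 libraries was taken from the authors' deposited FPKM table of 33158 gene symbols, in which every column was matched to a library by its labels. The submitters' processing notes name Bowtie2 and GRCh38; the quantification tool and strandedness are not given in the sources used here. FPKM values carry no read counts, so no interval for counting error is given and precision rests on 3 libraries per group.

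The 10 genes and all lists were chosen with earlier results of these data known. limma 3.58.1 (R 4.3.3) was fitted to log2(FPKM + 0.1) in 7 comparisons, for genes averaging 0.1 FPKM or more in the libraries fitted, with Benjamini-Hochberg adjustment over all genes tested and a limit of 0.05. The interaction used the 12 sorted libraries. The code was tested on simulated data. Shares and single values were compared by exact two-sided permutation. The 10 genes were examined in every comparison, and those under the minimum were not tested. There were 7 pathway lists and 10 marker lists, 1 pathway list being given only for its phosphatase genes because some items are not reported here. Of the lists, up to 3 genes per direction and CSC comparison were named, those past the test, without overlap and with the largest change, beside paralogs and defining markers. Marker genes other than these, and FAS, PCSK7, PPP1R12B and MYLK2, were named after their values were seen.

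Results were recomputed with other pseudocounts and expression minimums, after scaling by TPM, upper quartile or quantiles, with a trended and robust variance, with all 15 libraries in 1 fit, with a replicate block, without each library in turn and at stricter limits. Removal of a smooth trend on GC content or transcript length, and the stricter limits for the interaction, were chosen after seeing the data. GENCODE 29 (GRCh38) matched 24442 of 33158 symbols (73.7%), 11192 of 12164 genes averaging 1 FPKM or more (92%) and 10 of the 10 genes. Promoters are from RefSeq. Figures were drawn with matplotlib 3.10.9 in Python 3.11.15.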

Additional observations from a re-analysis of the deposited data

Results flagged for a closer look

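Of the 9 genes tested, 7 had CSC effects that differed between SUM149PT and HCC1937 by the interaction test in limma with Benjamini-Hochberg adjustment, and each is given here as the SUM149PT effect minus the HCC1937 effect on the log2 scale. Of all genes tested, 28.1% had a higher and 33% a lower effect in SUM149PT. The difference was 1.96 for ACTA2 (adjusted p = 0.000343), 0.78 for CNN2 (7.62e-05), 2.59 for TPM1 (1.77e-08) and 0.63 for TPM2 (0.00539). It was -1.67 for TAGLN (0.000107) and -1.97 for MYL9 (0.00474). The value of 1.48 for ACTG2 (limma adjusted p = 0.0112), the remaining gene, is a description, since ACTG2 reached the expression minimum only through SUM149PT CSCs (0.233 to 0.347 FPKM, the means of the other sorted groups being under 0.1) and was not tested within HCC1937. In SUM149PT every CSC library lay above every non-CSC library for ACTA2, ACTG2, CNN2, TPM1 and TPM2 and below every one for TAGLN and MYL9. In HCC1937 the fractions overlapped for ACTA2, ACTG2, TAGLN and MYL9. Overlap was not counted over all genes, so it does not set these genes apart from the rest. At the stricter limits (an adjusted p not above 0.0001 and a log2 difference of 1 or more in size), TPM1 alone of the 7 passed. The causes of these differences were not tested.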

How the results depend on the processing

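Of 1145 values recomputed for single genes under the alternatives, 1091 kept their direction and their side of the limit, 24 no longer passed, 6 newly passed and 24 changed direction. The cause was not tested for any of them.

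Counts of genes called moved as follows. At the stricter limits, SUM149PT lower calls went from 2 to 0, and HCC1937 calls from 2 higher and 1 lower to 0 and 0. Calls of the difference between lines, an alternative chosen after seeing the data, went from 5 higher and 2 lower to 1 and 0. CALD1 joined the higher calls of this difference with the GC or length trend removed and without HCC1937 CSC replicate 1. With a log2 fold change of at least 1 added, HCC1937 higher calls were 1 and lower calls 0. Under that limit the higher calls of HCC1937 against SUM149PT were 0 among CSCs and 0 among non-CSCs. The share of all genes under it was not computed. HCC1937 lower calls became 2 with the GC trend removed, and higher calls ranged from 1 to 2 when each library was left out. For HCC1937 against SUM149PT CSCs, higher calls became 1 with upper quartile scaling, 1 with TPM and 0 with the GC trend removed. Among non-CSCs, the 1 higher call became 0 with each of these, and 0 to 1 when each library was left out. CNN2 joined the lower calls among non-CSCs with upper quartile scaling and with the length trend removed. Lower calls of SUM159PT became 5 against SUM149PT CSCs with TPM, under which CNN1 was also tested (-1.41, limma adjusted p = 0.000531), and against HCC1937 CSCs 0 with quantile scaling and 1 with either trend removed. With TPM, CNN1 also passed as higher in SUM149PT CSCs and in the difference between lines (1.64, limma adjusted p = 0.0120). It passed as lower in HCC1937 against SUM149PT CSCs (-2.35, adjusted p = 7.24e-05). With no expression minimum CNN1 passed in each of these, and as higher in SUM159PT against HCC1937 CSCs (0.67, adjusted p = 0.00154). HCC1937 CSCs were listed at 0 for CNN1, so calls that use them are descriptions. Higher calls of SUM159PT, 6 in both, became 4 with TPM and 7 with quantile scaling or the length trend removed against SUM149PT CSCs, and 7 with upper quartile, quantile or length and 8 with GC against HCC1937 CSCs.

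Directions changed for CALD1 in SUM149PT with the length trend removed (0.0018) and MYL9 in HCC1937 without CSC replicate 1 (-0.10 to 0.71 over the libraries left out). The MYLK difference between lines turned with pseudocount 1 (-0.10), TPM (-0.044), and without HCC1937 CSC replicate 1 (-0.0052) or 2 (-0.018), HCC1937 non-CSC replicate 2 (-0.10), SUM149PT CSC replicate 1 (-0.05) or non-CSC replicate 3 (-0.08), and ranged from -0.10 to 0.13 over the libraries left out. TPM1 among non-CSCs turned with upper quartile (-0.13), quantile (-0.077), TPM (-0.12), GC (-0.064) and length (-0.12). For SUM159PT against SUM149PT CSCs, MYLK turned with quantile (0.45) and length (0.33), and ACTA2 (-0.32) and CNN2 (-0.17) with TPM, and all but CNN2 passed in the new direction. Against HCC1937 CSCs, TPM1 turned with upper quartile (0.31), quantile (0.75), GC (0.62) and length (0.44), MYLK with quantile (0.10) and CALD1 with GC (0.34), and all but MYLK passed as higher.

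With the replicate number as a block, TPM1 in SUM159PT against HCC1937 CSCs (-0.25) did not pass (adjusted p = 0.0840), and the block changed no other call of a member. Over all genes the HCC1937 calls were 1161 higher and 1905 lower with the block, against 1607 and 2378. Deviations of same-numbered libraries correlated by 0.14, 0.022 and 0.13 in SUM149PT and by -0.13, -0.051 and -0.028 in HCC1937 over 12164 genes. For different numbers they correlated by -0.20 to 0.065 in SUM149PT and by -0.085 to 0.13 in HCC1937. Such weak correlations cannot settle whether same-numbered libraries were paired.

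FPKM gives no depth, so how far counting error limits ACTG2 and CNN1, which are near 0, is unknown. With 3 libraries per group, exact permutation cannot pass 0.05. Scaling matters most for SUM159PT, whose sums of FPKM lie outside the range of the sorted libraries.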
